A study of Mus musculus with 15 samples.

Results

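Mouse LSK cells kept for 18 h with extracellular vesicles (EV) of AFT cells were compared with LSK cells kept for 18 h without EV. The members were chosen by the sample titles, which gave 5 arrays with EV and 5 without EV, 10 of the 15 arrays of the series. The other 5 arrays hold LSK cells taken straight after sorting (non-cultured). They entered the estimate of the spread between arrays and are shown for reference. LSK cells, which the labels also call HSPC, are stem and progenitor cells sorted for absence of lineage markers and presence of Sca-1 and Kit. Both cultured groups were kept in Myelocult M5300 medium and differed by the addition of EV of AFT cells, a stromal line. The labels give no strain, genotype, age, pooling or EV dose and describe no control particle, so the effect of EV cannot be told apart from that of anything added along with them. The submitters describe the 5 samples per group as biological replicates, without saying whether each came from other animals.

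Extracellular vesicles are membrane-bound particles that cells release and that carry proteins, lipids and RNA into the cells that take them up. Hematopoietic stem and progenitor cells live among stromal cells, which supply adhesion sites and growth factors such as Kit ligand and Cxcl12. An array reads all RNA in a culture, so transcripts brought in by EV and transcripts made by the LSK cells cannot be told apart here. In bulk RNA, fewer cells of a type and less RNA per cell cannot be told apart either.

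Levels are log2 signals of 1 probe set per gene, and a difference is the mean with EV minus the mean without EV, with the moderated standard error (SE) of limma and n = 5 per group. A gene is said to have risen or fallen where its limma adjusted p, Benjamini-Hochberg corrected over 22180 genes, was under 0.05. By this rule 40 genes (0.18% of those tested) rose and 4 (0.018%) fell, 0.198% in all. The gene lists below were drawn up with earlier results of these data known, so the counts called in them are descriptions only. Array medians lay between 4.62 and 4.74, and precision is limited by the number of arrays, with a median SE of 0.13. Kit, the stem cell factor receptor used to sort the cells, stood at 9.88 ± 0.21 with EV and 10.01 ± 0.08 without EV (mean ± SD, n = 5), and its mean was 9.62 in cells not cultured. The other gate gene, Ly6a, was not analysed here. Replicate 1 with EV correlated less with its group (0.964) than the other 4 arrays did (0.974 to 0.976). Leaving out this replicate gave 38 genes that rose, 34 of them among the 40, and 1 that fell. Non-cultured replicate 3 stood apart from its group at several probe sets described last, and leaving it out gave 38 and 2.

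**Figure D1:**
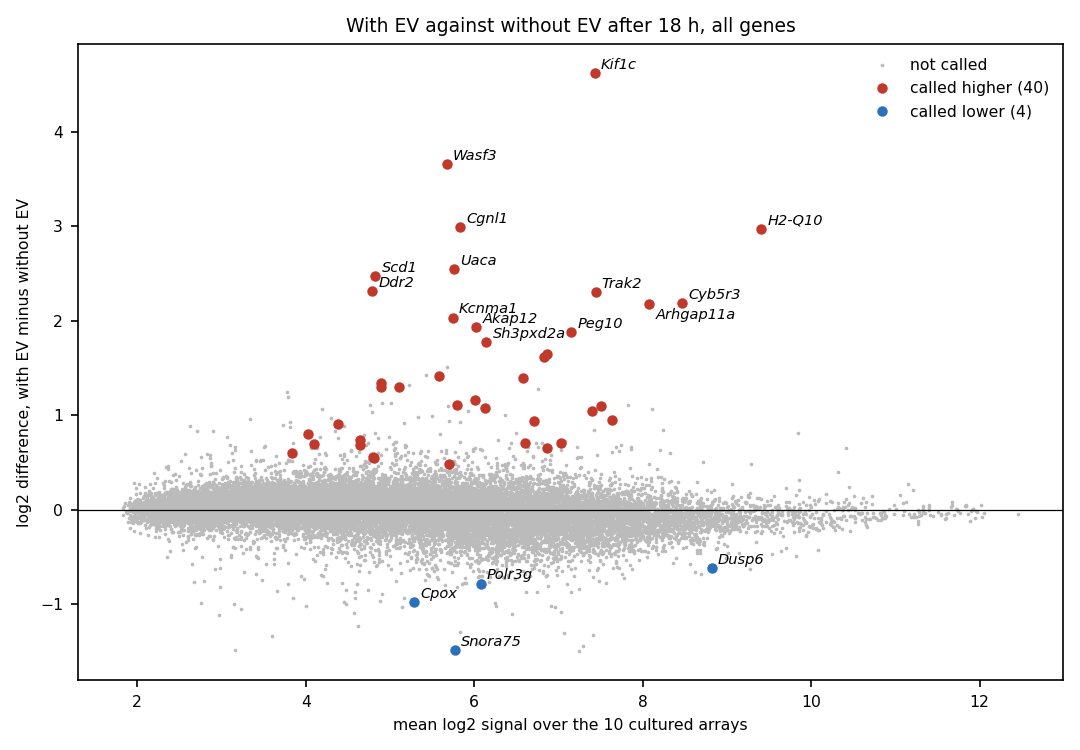
Each point is 1 of 22180 genes, with the mean log2 signal over the 10 cultured arrays on the x axis and the log2 difference (with EV minus without EV) on the y axis. Red points mark the 40 genes that rose and blue points the 4 that fell; the rises reach log2 4.62 while the falls stop at -1.49.

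The promoters of the genes with the 3 largest rises are shown so that the sequence before the start of each can be seen beside its values. Each sequence is the 250 bases before the annotated start in RefSeq, build GRCm38.p6, read 5′ to 3′ on the gene's strand. Capitals mark a match to any of 8 motifs searched on both strands. Kif1c lies on the plus strand (chr11:70700298-70700547), Wasf3 on the plus strand (chr5:146384756-146385005) and Cgnl1 on the minus strand (chr9:71771603-71771852).
Kif1c: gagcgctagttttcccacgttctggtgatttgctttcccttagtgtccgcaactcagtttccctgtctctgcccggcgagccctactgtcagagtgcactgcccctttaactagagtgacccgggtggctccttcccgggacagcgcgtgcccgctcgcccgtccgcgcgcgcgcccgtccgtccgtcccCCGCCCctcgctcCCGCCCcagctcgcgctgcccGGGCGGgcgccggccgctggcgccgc
Wasf3: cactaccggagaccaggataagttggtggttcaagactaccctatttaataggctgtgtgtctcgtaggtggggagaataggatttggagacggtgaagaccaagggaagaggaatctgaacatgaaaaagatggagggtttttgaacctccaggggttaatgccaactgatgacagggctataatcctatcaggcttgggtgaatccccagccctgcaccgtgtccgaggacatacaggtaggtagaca
Cgnl1: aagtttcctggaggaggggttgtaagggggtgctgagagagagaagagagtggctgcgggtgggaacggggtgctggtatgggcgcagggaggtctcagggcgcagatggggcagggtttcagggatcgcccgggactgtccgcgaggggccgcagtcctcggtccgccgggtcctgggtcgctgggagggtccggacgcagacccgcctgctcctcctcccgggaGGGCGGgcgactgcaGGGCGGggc

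The windows of Kif1c and Cgnl1 were alike in composition (70.8% G or C each) and held 3 and 2 matches to the GC box (GGGCGG), the Sp-family element of many promoters without a TATA box. The window of Wasf3 (49.2% G or C) held no match to any of the 8 motifs. Windows were found for 28 of the 40 genes that rose, 35 windows in all because some genes have several starts. Of these, 22 (62.9%) held a GC box against 32.7% of all 32851 windows, and their median content of G or C was 66.4% against 52.4%. The CCAAT box (CCAAT) was in 6 windows (17.1%, against 33.8% of all) and the TATA box (TATAAA) in 7 (20%, against 12.4%). The AP-1 site (TGANTCA) was in 2 windows (5.71%, against 6.75%), the CRE (TGACGTCA) in 1 (2.86%, against 1.55%), the TEAD site (GGAATG) in 3 (8.57%, against 12.6%) and the E-box (CACGTG) in 1 (2.86%, against 6.02%). The CArG box was in 0 of the 35 windows and in 1.47% of all. Matches to different motifs may overlap, and a match to the CArG box can contain a TATA box or a CCAAT box. The shares are descriptions with no test.

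Microtubule motors and their partners held the largest rise. Kif1c encodes a kinesin that carries cargo along microtubules, and its level was 9.89, 9.83, 10.34, 9.49 and 9.13 in replicates 1 to 5 with EV. Without EV it was 5.14, 5.06, 5.42, 5.56 and 4.41. All 5 arrays with EV lay far above all 5 without EV, and the non-cultured arrays (5.12 to 6.04) lay near the latter. The difference was log2 4.62 (SE 0.24, adjusted p = 5.74e-08), a 24.5-fold rise. Trak2 encodes an adaptor that links mitochondria to kinesin, and it stood at 9.04, 8.54, 9.0, 8.04 and 8.33 with EV and at 6.59, 6.03, 6.42, 6.40 and 6.01 without EV. The groups did not overlap, and the rise was 4.92-fold (log2 2.30, SE 0.18, adjusted p = 4.4e-06). Map1b, a protein that stabilises microtubules, rose by log2 1.29 (SE 0.18), from 4.25 to 5.54. In the list of 46 measured kinesins and transport adaptors, Kif1c and Trak2 rose (4.35% called, against 0.198% of all genes) and none fell. Trak1, the closest relative of Trak2, differed by log2 -0.34 (SE 0.14, adjusted p = 0.677). The list's median difference was -0.01 against 0.01 over all genes.

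Regulators of the actin cytoskeleton also held genes that rose. Wasf3 belongs to the WAVE family, which switches on branched actin assembly by the ARP2/3 complex. It stood at 7.72, 7.58, 8.12, 6.90 and 7.18 with EV and at 4.01, 4.06, 3.71, 3.98 and 3.47 without EV, while non-cultured arrays lay between 3.45 and 4.11. Every array with EV was thus well above every other array, and the rise was 12.6-fold (log2 3.65, SE 0.20, adjusted p = 5.74e-08). The other measured WASP, WAVE and ARP2/3 genes, 25 of them, were not called. The share called was 3.85% of the list of 26, against 0.198% of all genes, and the list's median was -0.08. Brk1, a small subunit of the WAVE complex, differed by log2 -1.33 with a wide spread (SE 0.47, adjusted p = 0.581), since its level ran from 5.31 to 7.78 with EV and from 7.35 to 9.59 without EV. Arpc5, an ARP2/3 subunit, differed by -0.43 (SE 0.12, adjusted p = 0.409) and Nckap1, another WAVE complex subunit, by 0.43 (SE 0.15, adjusted p = 0.567).

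Uaca, a coiled-coil protein with ankyrin repeats, was measured at 7.11, 7.17, 7.54, 6.82 and 6.50 with EV and at 4.33, 4.53, 4.40, 4.58 and 4.57 without EV. The 5 arrays without EV were tightly packed and far below those with EV, and the rise was 5.84-fold (log2 2.55, SE 0.16, adjusted p = 2.24e-07). Akap12, a scaffold that anchors protein kinase A, was at 6.54, 6.86, 7.51, 7.49 and 6.53 with EV and at 5.19, 5.04, 4.87, 5.06 and 5.13 without EV. It rose 3.80-fold (SE 0.18 on the log2 scale). Arhgap11a, which encodes a GTPase-activating protein, was at 8.92, 9.32, 9.65, 9.23 and 8.71 with EV and at 6.70, 6.82, 7.35, 7.12 and 6.97 without EV. It rose 4.51-fold (SE 0.16), and for both genes the groups were apart by more than 1 log2 unit at their nearest arrays.

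Smaller rises were found for other genes that bind or organise actin. Sh3pxd2a, a scaffold of podosomes, rose by log2 1.77 (SE 0.16), the formin Fhdc1 by 1.33 (SE 0.21), the actin cross-linking protein Palld by 1.29 (SE 0.16) and the actin-bundling protein Fscn1 by 0.56 (SE 0.09). Cdc42bpg, a kinase that acts below Cdc42, rose by 1.16 (SE 0.15), and Cdc42ep1, a Cdc42 effector, by 0.73 (SE 0.14). Cdc42ep1 was the member nearest the threshold (adjusted p = 0.0462). Kank2, which links talin to the cell cortex, rose by 1.11 (SE 0.15), caldesmon (Cald1) by 0.68 (SE 0.09), plectin (Plec), a cytolinker, by 0.65 (SE 0.11) and talin 2 (Tln2), which couples integrins to actin, by 0.54 (SE 0.09). In a list of contractile and actin-binding proteins with 31 measured genes, 3 rose (Uaca, Cald1 and Anln) and none fell (median 0.05). The share called was 9.68%, against 0.198% of all genes, in a list drawn up with earlier results of these data known. An unadjusted limma p under 0.05 was found for 5 higher and 1 lower, against 3.57% and 3.25% of all genes. Palld, Fscn1, Fhdc1 and Plec were not in that list. Flnc, a filamin, differed by 0.33 (SE 0.10, adjusted p = 0.461).

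**Figure D2:**
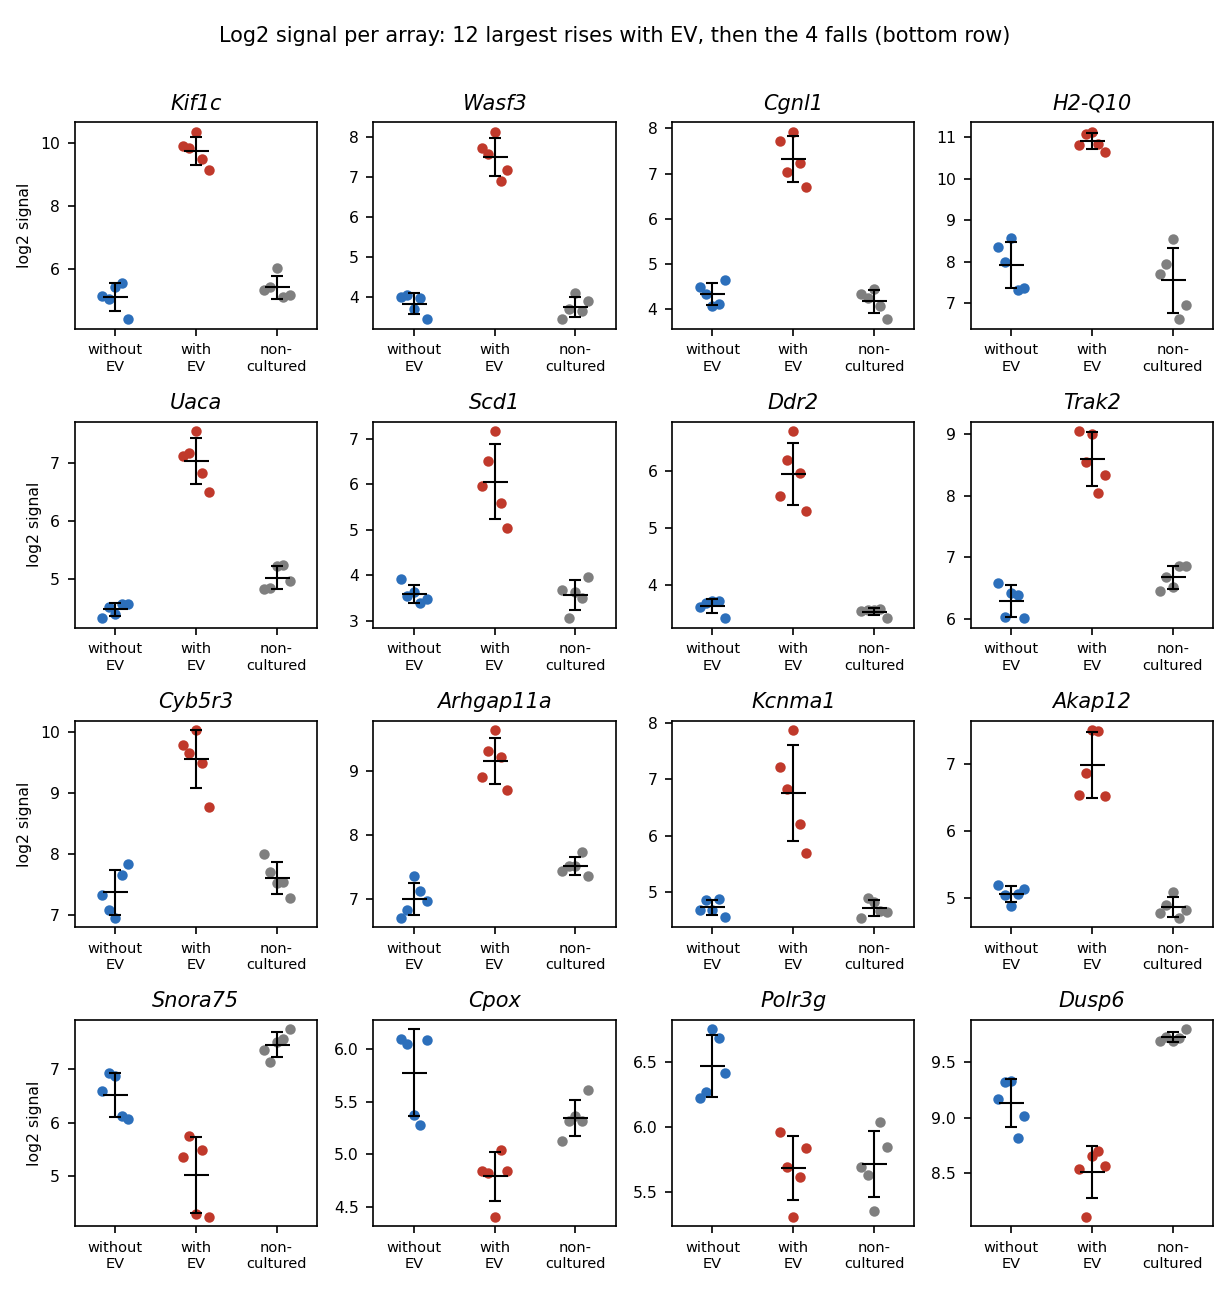
Each panel shows the log2 signal (y axis, scaled per panel) of 1 gene in all 15 arrays, grouped on the x axis as without EV, with EV and non-cultured, with bars for the mean and SD of 5 arrays. The first 12 panels are the largest rises, in which the points with EV lie above all points without EV, and the bottom row holds the 4 falls, in which they lie below.

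Genes of cell junctions and of contact with the matrix are described here. Cgnl1 encodes paracingulin, a protein of tight and adherens junctions, and stood at 7.72, 7.03, 7.92, 7.24 and 6.70 with EV. Without EV it stood at 4.49, 4.33, 4.08, 4.12 and 4.66. The groups were far apart, and the rise was 7.92-fold (log2 2.99, SE 0.20, adjusted p = 8.61e-07). Pkp4, an armadillo-repeat protein of junctions, rose by log2 1.61 (SE 0.22), from 6.02 to 7.63, with 6.83 in non-cultured cells. Of 40 measured junction genes these 2 rose (5% called, against 0.198% of all genes) and none fell (median 0.03). An unadjusted limma p under 0.05 was found for 7 higher and 1 lower, against 3.57% and 3.25% of all genes. Cgn, the paralog of Cgnl1, differed by 0.48 (SE 0.11, adjusted p = 0.163). Its groups did not overlap, a pattern in that direction that 4 of the 40 junction genes and 0.762% of all genes showed.

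Ddr2, a receptor tyrosine kinase for fibrillar collagen, was at 5.56, 6.20, 6.70, 5.97 and 5.31 with EV and at 3.63, 3.68, 3.73, 3.72 and 3.42 without EV. The arrays without EV and the non-cultured arrays (3.42 to 3.58) differed little among themselves, and the rise with EV was 4.96-fold (log2 2.31, SE 0.19, adjusted p = 6.77e-06). Of 38 measured integrins, their partners and collagen receptors, Ddr2 and Tln2 rose (5.26% called, against 0.198% of all genes) and none fell (median 0.02). Ryk, a Wnt receptor with an inactive kinase domain, rose by log2 1.41 (SE 0.22), from 4.88 to 6.29. Kcnma1, the pore subunit of the large-conductance calcium-activated potassium channel, was at 7.21, 6.82, 7.87, 6.20 and 5.69 with EV. Without EV it was at 4.68, 4.85, 4.68, 4.87 and 4.55. Its rise was 4.09-fold (SE 0.29), with a wide spread with EV and a narrow one without. A second probe set of Kcnma1 was dim, at a mean of 3.65 with EV and 3.60 without EV, and differed by 0.04 (SE 0.09). Grem1, a secreted antagonist of bone morphogenetic proteins, rose by log2 0.91 (SE 0.16), from 3.93 to 4.83.

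Lipid and redox enzymes included 2 large rises. Scd1, the stearoyl-CoA desaturase that makes monounsaturated fatty acids, was at 5.97, 6.52, 7.18, 5.59 and 5.04 with EV and at 3.91, 3.55, 3.62, 3.38 and 3.49 without EV. It had the largest SD with EV (0.83) among the 12 largest rises after Kcnma1, yet its lowest array with EV stood above its highest without. The rise was 5.53-fold (log2 2.47, SE 0.30, adjusted p = 0.000707). Cyb5r3, the reductase that passes electrons to cytochrome b5 and so to desaturases, was at 9.80, 9.67, 10.04, 9.51 and 8.78 with EV and at 7.33, 7.09, 6.96, 7.65 and 7.83 without EV. Its groups did not overlap, and it rose 4.55-fold (SE 0.22). Rdh10, a retinol dehydrogenase, rose by log2 1.07 (SE 0.20, adjusted p = 0.0347). Of 35 sterol and fatty acid synthesis genes measured, Scd1 and Cyb5r3 rose (5.71% called, against 0.198% of all genes) and none fell (median 0.00). The elongase Elovl6 differed by 0.34 (SE 0.18) and the methylsterol monooxygenase Msmo1 by -0.41 (SE 0.23), both with adjusted p above 0.7.

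H2-Q10 encodes a secreted class I histocompatibility protein known mainly from liver. It was at 10.80, 11.07, 11.12, 10.84 and 10.65 with EV, at 8.35, 8.0, 8.56, 7.33 and 7.37 without EV and at 7.70, 7.94, 8.56, 6.62 and 6.96 in non-cultured cells. The arrays with EV were high and close together and lay above all others, a 7.84-fold rise (log2 2.97, SE 0.32, adjusted p = 0.000154). Class I genes are near-identical copies of one another, so which gene this probe set reads is uncertain. A second, dimmer probe set of H2-Q10, at 5.39 with EV and 5.27 without EV, differed by 0.12 (SE 0.12). Of 28 measured class I and antigen-loading genes this was the only call (3.57%, against 0.198% of all genes), with a median of -0.06. Psmb10, an immunoproteasome subunit, differed by -0.24 (SE 0.11, adjusted p = 0.726). Of 19 measured hepatocyte genes 0 were called by limma at the adjusted threshold (median 0.08). Their array means were 3.96 to 4.23 with EV and 3.93 to 4.11 without EV. At an unadjusted p under 0.05, 1 was lower, against 3.25% of all genes. Apoa1 differed by 0.18 (SE 0.11) and Ahsg by -0.41 (SE 0.13).

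Genes of the cell cycle and chromosomes gave 4 rises. Anln encodes anillin, a scaffold of the cytokinetic ring, and rose by log2 1.40 (SE 0.20), from 5.88 to 7.28. Ccnd2, cyclin D2 of the G1 phase, was at 8.06, 8.13, 8.22, 8.28 and 7.60 with EV, at 6.91, 6.92, 7.37, 6.54 and 7.05 without EV and at 8.14, 8.45, 8.52, 8.50 and 8.36 in non-cultured cells. It rose by 1.10 (SE 0.15, adjusted p = 0.0024), and its arrays with EV overlapped the non-cultured ones. Incenp, a subunit of the chromosomal passenger complex, rose by 0.70 (SE 0.12), from 6.25 to 6.96, with 7.43 in non-cultured cells. Cenpb, a centromere protein, rose by 1.04 (SE 0.17). Of 41 measured genes of mitosis and cytokinesis, Anln and Incenp rose (4.88% called, against 0.198% of all genes) and none fell (median 0.07). An unadjusted limma p under 0.05 was found for 6 higher and 3 lower. Nek2, a centrosome kinase, differed by 0.56 (SE 0.13, adjusted p = 0.209), Cenpf, a kinetochore protein, by 0.65 (SE 0.19, adjusted p = 0.427) and Bub3, of the spindle checkpoint, by -0.49 (SE 0.12, adjusted p = 0.257). Of 37 measured genes of DNA replication 0 were called by limma (median -0.01). At an unadjusted p under 0.05, 3 were higher and 1 lower, against 3.57% and 3.25% of all genes. Rrm2, a subunit of ribonucleotide reductase, differed by 0.94 with a wide spread (SE 0.41, adjusted p = 0.694), and Dtl, a ubiquitin ligase adaptor active in S phase, by 0.41 (SE 0.17, adjusted p = 0.681).

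Among transcriptional regulators, Sall1, a zinc-finger repressor, rose by log2 0.80 (SE 0.13) and Gli3, an effector of Hedgehog signalling, by 0.69 (SE 0.12). Nkx2-5, a homeobox gene known from heart, rose by 0.48 (SE 0.08), and Tsc22d2 by 0.70 (SE 0.11). Levels of Sall1 (4.43 with EV, 3.62 without), Gli3 (4.44 and 3.75) and Grem1 were low. Signal over background is not given in the sources used here, so dim genes cannot be told from background. The means without EV of Scd1 (3.59), Ddr2 (3.63), Wasf3 (3.85) and Fam149a (3.54) were similarly low. The folds of these rises therefore start from levels that may be background. Peg10, an imprinted gene derived from a retrotransposon, rose by 1.88 (SE 0.17), from 6.21 to 8.09. Kctd10, an adaptor of the cullin 3 ubiquitin ligase, rose by 0.95 (SE 0.13) and Wsb2, a SOCS-box protein, by 0.94 (SE 0.13). The remaining 2 of the 40 were Fam149a (0.60, SE 0.11) and an uncharacterised clone-like symbol.

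The arrays with EV and without EV did not overlap for any of the 44 called genes, which the call itself favours, so nothing is read from it; over all genes 0.762% were higher and 0.437% lower without overlap. Within the group with EV, replicate 3 was the highest array for 22 of the 40 genes (55%, against 16.2% of all genes) and replicate 5 the lowest for 24 (against 20.3% of all genes). The mean level of the 40 genes was 6.91, 6.83, 7.16, 6.70 and 6.49 in replicates 1 to 5 with EV and lay between 5.23 and 5.33 in the arrays without EV. Over the 40 genes arrays varied more with EV, with a median SD of 0.37 against 0.20 without EV. The SD was larger with EV for 32 of the 40, and for 59.3% of all genes, whose mean variance was 0.0891 with EV and 0.0708 without EV. Leaving out replicate 5 with EV gave 50 genes that rose, 39 of them among the 40. Leaving out replicate 2 without EV gave 29, all among the 40. These were the extremes over the 15 arrays.

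**Figure D3:**
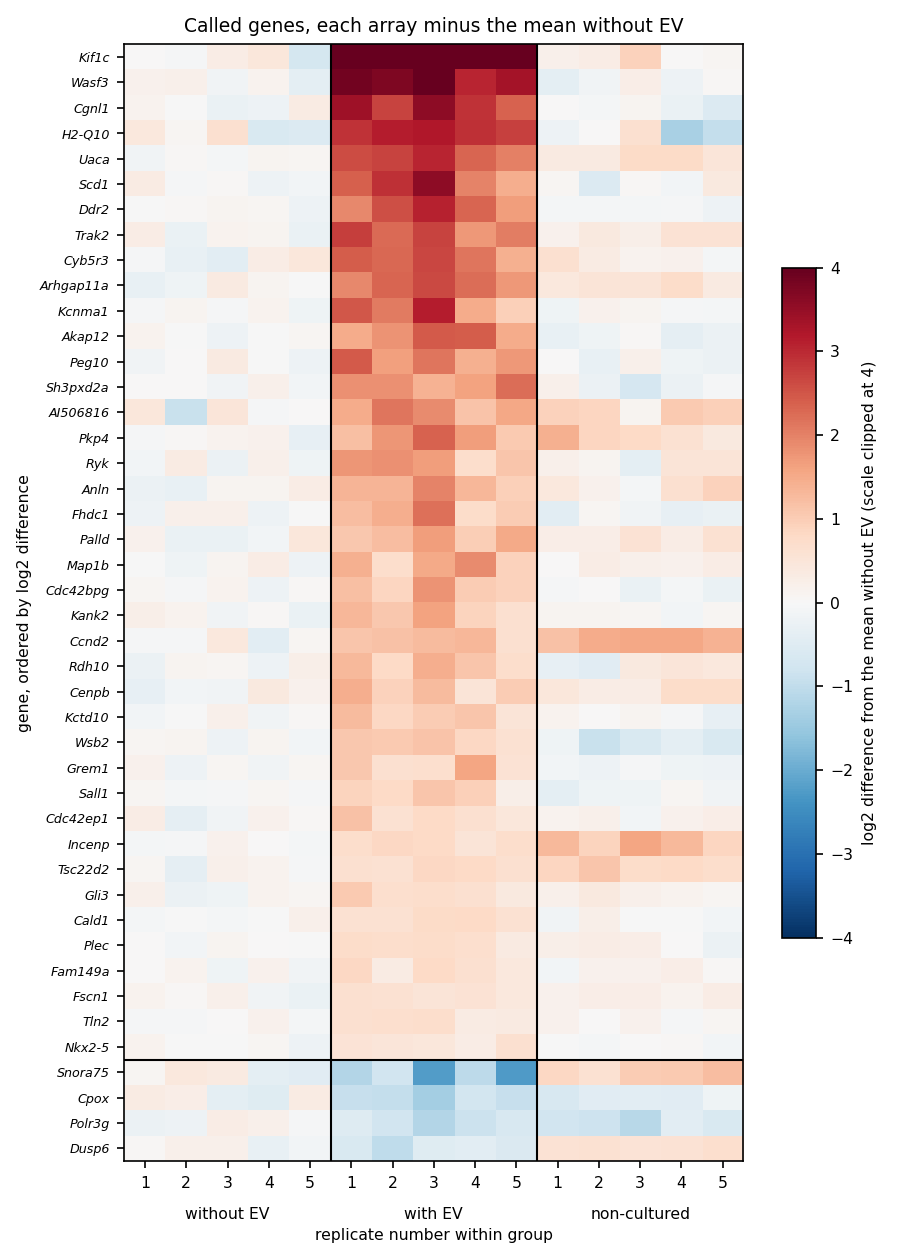
Rows are the 44 called genes ordered by log2 difference, columns the 15 arrays by group and replicate, and colour the log2 signal minus that gene's mean without EV, clipped at 4. The 40 upper rows are red with EV, most deeply in replicate 3 and least in replicate 5, while most stay pale in non-cultured cells; Ccnd2, Incenp, Tsc22d2, Pkp4 and the clone-like AI506816 are among those that are red there too.

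The non-cultured arrays give the level before culture. The comparisons with them share 5 arrays with the one above, so their values are set side by side only. Over all genes, culture without EV against non-cultured gave 1497 genes higher (6.75%) and 1525 lower (6.88%), and culture with EV gave 1394 higher (6.28%) and 1741 lower (7.85%). For Ccnd2 the difference without EV against non-cultured was log2 -1.44 (SE 0.15, adjusted p = 6.54e-06) and with EV -0.34 (SE 0.15, adjusted p = 0.166). For Tsc22d2 these were -0.84 (adjusted p = 8.19e-05) and -0.14 (adjusted p = 0.5), and for Incenp -1.18 (adjusted p = 6.65e-06) and -0.47 (adjusted p = 0.0155). Uaca (-0.54 and 2.00), Arhgap11a (-0.51 and 1.66) and Pkp4 (-0.81 and 0.80) were called lower without EV and higher with EV than non-cultured cells. Wsb2 was called higher in both (0.53 and 1.47).

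The 4 falls ran from log2 -0.62 to -1.49. Cpox, coproporphyrinogen oxidase of heme synthesis, was at 4.84, 4.83, 4.41, 5.05 and 4.84 with EV and at 6.09, 6.04, 5.37, 5.27 and 6.08 without EV. The groups did not overlap, and the fall was log2 -0.98 (SE 0.17, adjusted p = 0.021). It was the only one of 22 measured heme genes called (4.55%, against 0.198% of all genes), with a median of -0.02. Slc25a28, a mitochondrial iron carrier, differed by -0.71 (SE 0.19, adjusted p = 0.326).

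The next fall was that of Polr3g, which encodes an RNA polymerase III subunit found in undifferentiated cells. It was at 5.96, 5.69, 5.31, 5.62 and 5.84 with EV and at 6.23, 6.27, 6.75, 6.68 and 6.42 without EV. It fell by log2 0.78 (SE 0.15, adjusted p = 0.0441), and its arrays with EV overlapped the non-cultured ones (5.36 to 6.04). Of 28 measured genes of this polymerase it alone was called (3.57%, against 0.198% of all genes), with a median of -0.10 over the list. Polr3f differed by -0.40 (SE 0.15) and Polr3k by -0.51 (SE 0.19), both with adjusted p above 0.6.

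Dusp6, the phosphatase that switches off ERK, was at 8.53, 8.11, 8.65, 8.69 and 8.56 with EV, at 9.17, 9.32, 9.33, 8.82 and 9.01 without EV and between 9.69 and 9.80 in non-cultured cells. Its fall was log2 -0.62 (SE 0.12, adjusted p = 0.0447). A second, dimmer probe set, at 7.28 with EV and 7.28 without EV, differed by 0.01 (SE 0.21). Dusp6 was the only call among 26 measured ERK feedback genes (3.85%, against 0.198% of all genes), with a median of 0.00. Ccnd1, cyclin D1, differed by 0.65 (SE 0.20, adjusted p = 0.492). Snora75, a small nucleolar RNA that guides RNA modification, was at 5.35, 5.76, 4.30, 5.49 and 4.24 with EV, at 6.59, 6.93, 6.87, 6.12 and 6.08 without EV and between 7.13 and 7.75 in non-cultured cells. Its fall was log2 -1.49 (SE 0.28, adjusted p = 0.0363). Of 74 small nucleolar RNA genes it was the 1 called (1.35%, against 0.198% of all genes), and 23 had a positive difference (median -0.15). In this class 1 gene was higher and 10 were lower at an unadjusted p under 0.05. Of 483 microRNA genes 0 were called by limma (median 0.04), with 12 higher and 4 lower at an unadjusted p under 0.05. The shares of all genes at that threshold were 3.57% higher and 3.25% lower.

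The number of falls rests on single arrays. It was 0 by limma when replicate 2 without EV was left out (670 genes lower at an unadjusted p under 0.05), and 1 without replicate 1 or 2 with EV, replicate 3 without EV, or non-cultured replicate 2 or 5. It was 2 without replicate 1 without EV or non-cultured replicate 1 or 3, and 3 or 4 otherwise. These were in part other genes: of the 4 called without replicate 3 with EV, 0 were among the 4 falls, and of the 3 called without replicate 5 with EV or replicate 5 without EV, 1 was. In the 15 fits that each left out 1 array, none of the 4 was called every time. Over all genes 792 were higher (3.57%) and 721 lower (3.25%) at an unadjusted p under 0.05.

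Just outside the threshold lay Samd4, an RNA-binding repressor of translation (log2 0.68, adjusted p = 0.0517), Nes, the intermediate filament nestin (0.76, adjusted p = 0.0541), and Net1, a guanine nucleotide exchange factor (1.10, adjusted p = 0.0541). The next were Pcolce, an enhancer of procollagen processing (0.51, adjusted p = 0.0604), Stard13, a GTPase-activating protein (0.54, adjusted p = 0.0883), and Ajuba, a LIM protein of junctions (0.70, adjusted p = 0.0891). In the other direction Immp1l, of the mitochondrial inner membrane peptidase (-0.63, adjusted p = 0.0531), and Oxld1 (-0.55, adjusted p = 0.0805) came nearest, followed by Arl14ep (-0.72), Ero1a, an oxidase of the endoplasmic reticulum (-0.76), Commd6 (-0.71) and Chchd7 (-0.61). None of these 12 passed.

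Lists of the cells' own programmes held no call by limma at the adjusted threshold. Among 42 measured stem cell and early progenitor genes (median -0.11) Esam differed by -0.34 (SE 0.11, adjusted p = 0.524), Gata3 by -0.34 (SE 0.12) and Prdm16 by 0.47 (SE 0.21). Among 37 pro-apoptotic genes (median -0.10) Dapk1, a death-associated kinase, differed by -0.56 (SE 0.18, adjusted p = 0.521), Aifm1 by -0.59 (SE 0.19) and Ripk3, a kinase of necroptosis, by -0.49 (SE 0.16). Among 27 anti-apoptotic genes (median -0.02) Bcl2 differed by -0.23 (SE 0.13). Per array, the mean of the pro-apoptotic genes was 5.92 to 6.01 with EV and 6.03 to 6.19 without EV, ranges that did not overlap. Those of the stem cell genes (6.70 to 6.91 and 6.90 to 7.01) and the anti-apoptotic genes (6.35 to 6.52 and 6.34 to 6.52) did. At an unadjusted p under 0.05, 2 stem cell genes were higher and 4 lower, 5 pro-apoptotic genes were lower and 1 anti-apoptotic gene was lower. The shares of all genes at that threshold were 3.57% higher and 3.25% lower. The 49 genes of vesicle biogenesis and uptake had a median of -0.08, and in that list Anxa2, a membrane-binding annexin, differed by 0.73 (SE 0.15, adjusted p = 0.0923), Vps37b by 0.68 (SE 0.25) and the tetraspanin Cd151 by -0.47 (SE 0.25). At an unadjusted p under 0.05, 2 vesicle genes were higher and 2 lower. The median difference was -0.07 over the 7393 brightest genes and 0.03 over the 7394 dimmest, and after quantile normalization it was -0.02 and 0.01. The list medians were then -0.07 for stem cell genes, -0.05 for pro-apoptotic genes and -0.02 for vesicle genes, and that of anti-apoptotic genes turned to 0.03. The part of signal level in these medians was not tested.

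**Figure D4:**
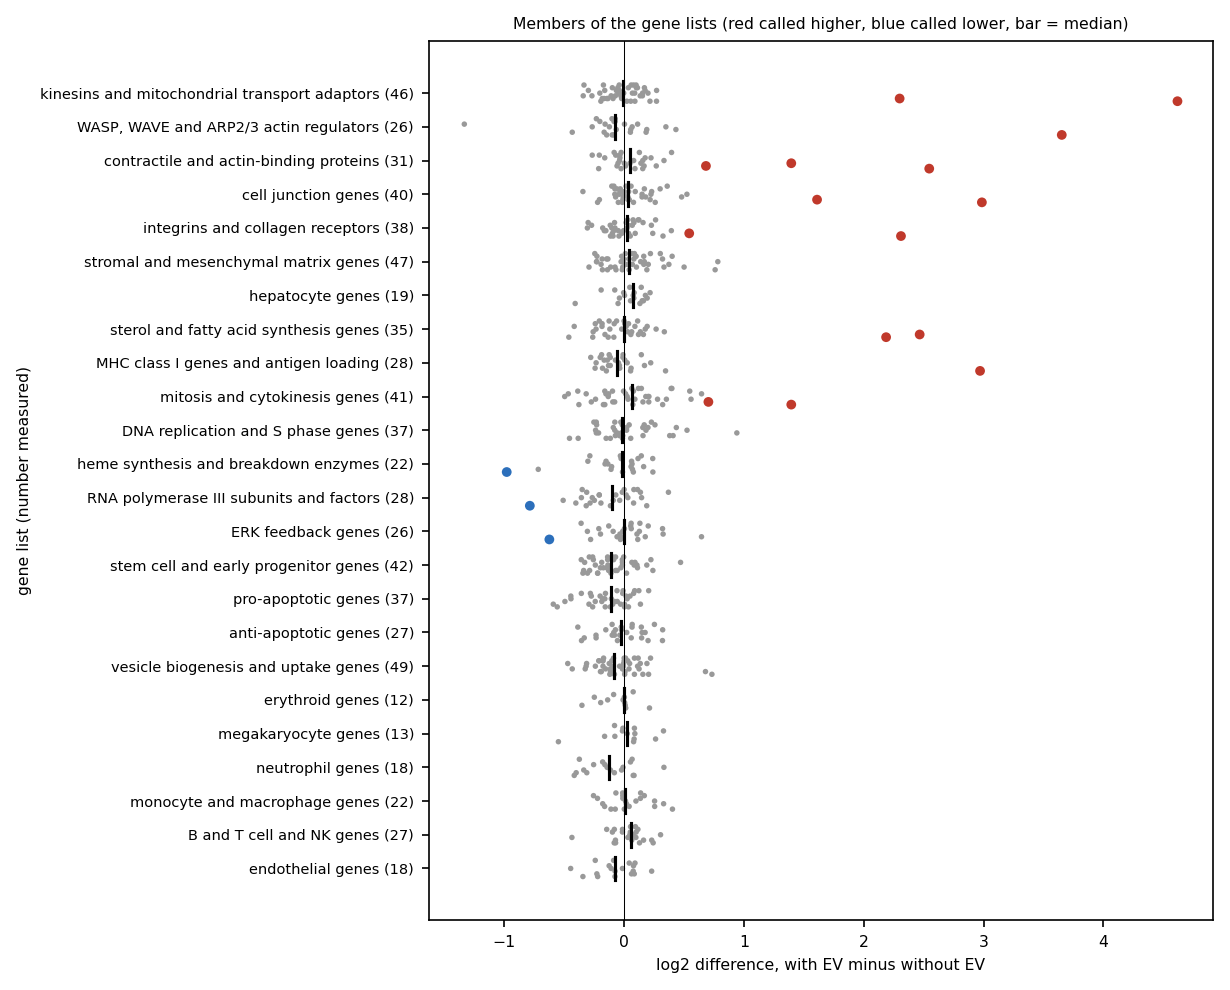
Each row is a gene list with its number of measured members, each point a member's log2 difference (with EV minus without EV, x axis), and the black bar the list's median. Red points (called higher) and the 3 blue points (called lower) stand alone within lists whose medians lie between -0.13 and 0.08.

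Markers of other cells were set beside these results. Of 47 measured stromal and mesenchymal matrix genes 0 were called by limma (median 0.04), while 10 were higher and 0 lower at an unadjusted p under 0.05, against 3.57% and 3.25% of all genes. Their mean level per array was 4.97 to 5.12 with EV, 4.93 to 5.03 without EV and 4.87 to 4.94 in non-cultured cells. The smallest p of the list was that of Nes, named above as just outside the threshold. Its mean was 5.24 with EV and 4.48 without EV (difference 0.76, SE 0.15, adjusted p = 0.0541), and its groups did not overlap. Within the list Cxcl12 stood at 4.94, 4.92, 5.57, 4.92 and 4.63 with EV and between 4.42 and 4.61 without EV (difference 0.50, SE 0.13, adjusted p = 0.33). Replicate 3 was again the highest array with EV, and the groups did not overlap. Sparc, a collagen-binding protein, differed by 0.38 (SE 0.11), Ptn, a heparin-binding growth factor, by 0.78 (SE 0.26) and Col1a1 by 0.32 (SE 0.12), all with adjusted p above 0.4. No level of 0 exists on this scale, and the part of stromal RNA in the rises was not tested. No member was called by limma among 12 erythroid genes (median 0.00), 13 megakaryocyte genes (0.03), 18 neutrophil genes (-0.13), 22 monocyte and macrophage genes (0.01), 27 lymphoid genes (0.06) or 18 endothelial genes (-0.07). At an unadjusted p under 0.05, 1 erythroid and 1 monocyte gene were higher and 1 endothelial gene lower. The mean level of the neutrophil genes was 6.98 to 7.19 with EV and 6.88 to 7.49 without EV, and that of the monocyte genes 6.28 to 6.58 and 6.27 to 6.51. Pf4, a platelet chemokine, differed by -0.55 (SE 0.26), Elane, neutrophil elastase, by -0.40 (SE 0.25), Marco, a macrophage scavenger receptor, by 0.41 (SE 0.15) and Emcn, an endothelial sialomucin, by -0.44 (SE 0.32).

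The 4 largest called differences on the array lay in probe sets without a gene name in the annotation used here. Of 16010 such probe sets, 16 were called higher (0.0999%) and 1 lower (0.00625%) in a fit over all 41345 probe sets. Some repeat the same values, which leaves 12 distinct higher and 1 lower. They are given by their probe set numbers and were chosen by this call. Probe set 17549126 stood at 12.17, 12.25, 12.26, 12.12 and 11.96 with EV, near the top of the array's range, and at 3.19, 3.06, 3.11, 3.15 and 3.34 without EV. In non-cultured cells it stood at 2.81, 3.04, 10.14, 3.18 and 3.21, so replicate 3 lay apart from the other 4 arrays and 2.01 below the mean with EV. The difference of EV against without EV was log2 8.98 with an SE of 1.07 over all 15 arrays and of 0.09 when only the cultured arrays set the spread.

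Probe set 17549150 was at 11.53, 11.39, 11.60, 11.02 and 10.79 with EV and between 4.23 and 5.05 without EV, a difference of 6.64 (SE 0.46). Probe set 17549062 was at 11.57, 11.47, 11.73, 11.13 and 10.71 with EV and between 4.30 and 4.94 without EV (6.63, SE 0.48). Probe set 17549130 was at 10.29, 10.15, 10.34, 9.68 and 9.48 with EV and between 4.40 and 4.88 without EV (5.37, SE 0.27). In all 3 replicate 3 was the highest with EV and replicate 5 the lowest, and non-cultured replicate 3 was raised, at 7.31, 7.41 and 6.04, where the other non-cultured arrays did not exceed 4.89.

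The other distinct ones that were higher differed by between 0.58 and 3.25. The single lower one, 17202837, was at 2.76, 4.63, 4.84, 4.49 and 2.92 with EV and at 5.71, 6.72, 7.09, 7.76 and 7.08 without EV (-2.95, SE 0.51). Non-cultured replicate 3 also held the highest non-cultured value of Kif1c (6.04), Wasf3 (4.11) and H2-Q10 (8.56), 3 genes singled out after their values were seen. Over the 40 genes that rose it was the highest non-cultured array in 9 (22.5%, against 21.7% of all genes). Without this array 18 probe sets without a name were called higher and 1 lower, but not the same ones throughout. The lower one, 17202837, was then not called (adjusted p = 0.0601), nor was 17432722 (adjusted p = 0.0646). With only the cultured arrays in the fit these 2 (adjusted p = 0.126 and 0.323), 17417699 (adjusted p = 0.129) and 17423205 (adjusted p = 0.12) were not called. What sets this array apart was not tested.

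**Figure D5:**
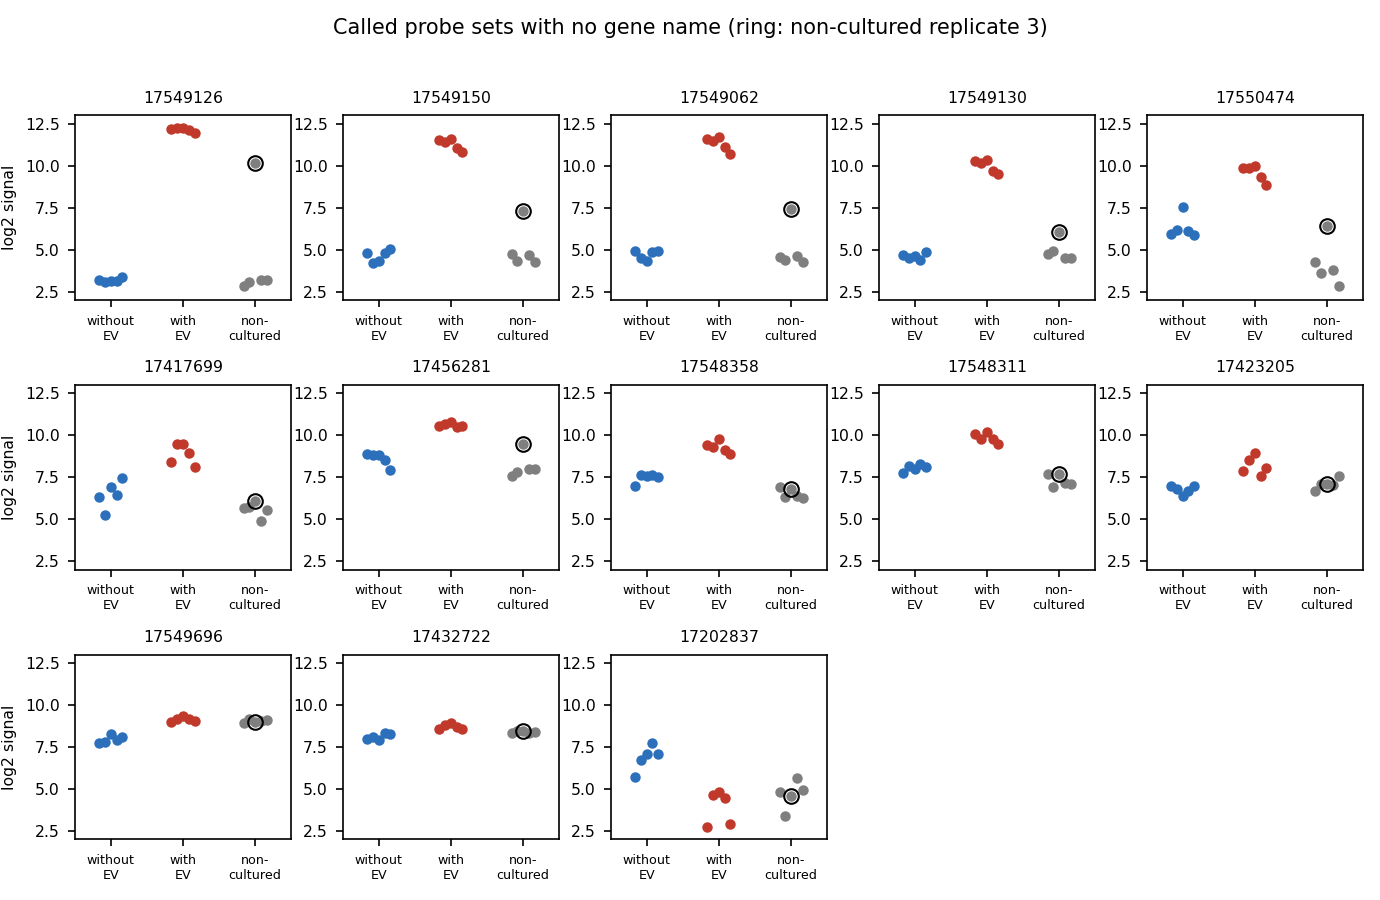
Each panel shows 1 of the 13 distinct called probe sets without a gene name, with log2 signal (y axis, 2 to 13 in every panel) for the 5 arrays without EV, with EV and non-cultured, and a ring around non-cultured replicate 3. In the first 4 panels the points with EV lie between 9.48 and 12.26 and the ringed point lies between the groups.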

How the data were processed

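Total RNA of 15 samples (5 with EV, 5 without EV and 5 non-cultured) was hybridised to Affymetrix Mouse Gene 2.0 arrays from 500 pg of RNA, per the labels' protocols. The deposited table holds 41345 probe sets with values from 1.40 to 13.0, which were read as log2 and used as deposited. Log base and normalization were not given in the sources used here. The submitters' processing notes name MAS5 alone, without a version. There were 0 pairs of identical arrays.

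The platform annotation pairs 23521 probe sets with 1 gene symbol, 1814 with several and 16010 with none. Each gene was read on its brightest probe set by mean over the 15 arrays, for 22180 genes. A group-means model over all 15 arrays was fitted with limma 3.58.1 in R 4.3.3, with 12 residual and 3.66 prior degrees of freedom. Tests were two-sided with Benjamini-Hochberg adjustment over all genes, a threshold of 0.05 and no minimum fold. P-values measure the spread between these samples, which may be technical. The fit was tested on simulated data.

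The members, gene lists and tests were chosen with earlier results of these data known. The text could name every called gene except predicted or clone-like symbols, the 6 nearest genes above the threshold in each direction, up to 5 members of each list by smallest p, and up to 5 markers per cell type by level. Genes were sorted by role after their values were seen. Promoters came from RefSeq (GRCm38.p6), cut to the 250 bases before the start. No batch or date is given in the labels. Alternatives were other normalizations, probe set choices, spread estimates and thresholds, a replicate block, and leaving out each array in turn.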

Additional observations from a re-analysis of the deposited data

Results flagged for a closer look

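In groups of 5 arrays, 19 of 289 groups scanned (6.57%) held an array far from the other 4 by the Dixon test at 5%. Chance gives about 1 in 20 for independent groups. These groups are the same arrays read at many genes and probe sets, so no conclusion is drawn from the share. In non-cultured replicate 3 the array stood high at probe sets 17549126 (10.14, others 2.81 to 3.21), 17549150 (7.31), 17549062 (7.41), 17549130 (6.04) and 17456281 (9.46, others 7.56 to 8.01) and low at the clone-like AI506816 (6.16), named for this value. Other non-cultured arrays stood apart at Ddr2 (3.42, replicate 5) and Kank2 (5.15, replicate 4). With EV these were Dusp6 (8.11, replicate 2), Plec (6.90, replicate 5), Kit (9.52, replicate 1), Pard6b, a cell polarity gene (5.49, replicate 1), Cenpf (7.59, replicate 3) and Ripk3 (6.63, replicate 5). Without EV they were Cald1 (4.49, replicate 5), Stard13 (3.94, replicate 3), Cenpf (5.64, replicate 1) and probe sets 17550474 (7.52, replicate 3) and 17548358 (6.98, replicate 1).

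The probe sets without a gene name stand outside the comparison of genes and differed between the groups by log2 8.98 (17549126), 6.64 (17549150), 6.63 (17549062), 5.37 (17549130), 3.25 (17550474), 2.40 (17417699), 2.02 (17456281), 1.85 (17548358), 1.80 (17548311), 1.43 (17423205), 1.17 (17549696), 0.58 (17432722) and -2.95 (17202837). Their transcripts are not named here.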

How the results depend on the processing

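The count of genes that rose (40) stayed between 27 and 51 under other normalizations, spread estimates, probe set choices and thresholds without a replicate block, and between 29 and 50 when 1 array was left out. The count of genes that fell (4) was 2 after quantile normalization and 0 at an adjusted p under 0.01. It was 0 with only the cultured arrays in the fit (677 lower at an unadjusted p under 0.05). It was 5 without the dimmest 40% of genes, 5 with the mean of the probe sets and 6 at an adjusted p under 0.1. When 1 array was left out it lay between 0 and 4. With the replicate number as a block, 35 rose (31 shared with the 40) and 4 fell (1 shared) over all arrays, and 15 rose and 1 fell (0 shared) over the cultured arrays only. Whether the replicate numbers pair the samples cannot be decided from 5 arrays a group. Correlations of deviations between same-numbered cultured arrays ran from 0.0231 to 0.187, and 1 of 5 arrays matched its own number best. The difference of Dusp6 turned from -0.62 to 0.0070 on its dimmer probe set, an alternative added after the data were seen, as were leaving out non-cultured replicate 3 and the fit of cultured arrays for probe sets without a name. At the threshold of 0.05, 14 of the 40 rises were called under every one of these alternatives that kept the gene, among them Kif1c, Wasf3, Cgnl1, Uaca, Scd1 and Ddr2. Cdc42ep1 was called in 2 of the 15 fits without 1 array, Fam149a in 4, Rdh10 in 7, Incenp in 8 and Nkx2-5 in 9. With 5 arrays a group and no signal over background, small differences in dim genes are limited.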
